A study of Mus musculus with 3 samples.

Results

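Killer lectin-like receptor genes (Klr genes) encode C-type lectin-like proteins of the cell surface that natural killer (NK) cells and some T cells use to read ligands on other cells. Every protein-coding gene whose GENCODE M21 name begins with Klr was taken as a member, which gave 26 genes among 22028 protein-coding genes. They were measured in 3 polyA-selected RNA-seq libraries of activated regulatory T cells (Treg cells), primary cells of 1 male mouse aged 9 weeks. The labels make the libraries technical replicates 1, 2 and 3 of 1 biosample and give a single group, so levels, transcripts and the spread between libraries are described, and every SD with n = 3 is technical. No source used here gives the strain, the sort or the way the cells were activated.

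The libraries held 31445344, 32612609 and 37259281 expected counts in libraries 1, 2 and 3, over all rows. All 7 Treg and CD4 T cell markers were detected, that is, had at least 1 TPM (reads per transcript length, scaled to the same total in every library) in each library, with a median of 389 TPM, and Foxp3 was the lowest of them at 135 ± 2.65 TPM (SD, n = 3).

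Some Klr receptors inhibit the cell that carries them, through a tyrosine motif in the tail that recruits phosphatases such as SHP-1 and SHIP-1. Others activate it through adaptor proteins such as DAP10 and DAP12. Ly49 receptors (Klra genes) bind classical MHC class I molecules, CD94 with NKG2 proteins (Klrd1 with Klrc genes) binds Qa-1, NKR-P1 receptors (Klrb1 genes) bind Clec2 proteins, NKG2D (Klrk1) binds stress-induced ligands, and KLRG1 binds classical cadherins. In T cells, KLRG1 is known as a marker of highly differentiated effector cells, Treg cells included.

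Klrg1 was by far the most abundant member. It had 279.5, 259.7 and 257.9 TPM in libraries 1, 2 and 3, from 7424, 7339 and 8219 expected counts. The 3 values lay close together, with library 1 highest. The mean was 266 ± 11.97 TPM (SD, n = 3), 9.11 times the median of the detected protein-coding genes (29.2 TPM), and Klrg1 ranked 556 of 22028 protein-coding genes by mean TPM. It took 96.6%, 97.2% and 95.7% of the expected counts of all 26 members in libraries 1, 2 and 3, or 96.5% ± 0.714 (SD, n = 3).

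Klrg1 (ENSMUSG00000030114.8) lies on mm10 chromosome 6, 122270596 to 122282882, minus strand, and GENCODE M21 gives it 1 transcript of 1414 bases in 5 exons, with 564 coding bases. No annotated gene overlaps it on either strand. None of the 1365 distinct 50-base words of its transcript, the length of a read, occurs in a transcript of another gene, and its expected counts were whole in all 3 libraries. The coding part of exon 1 (chr6:122282730-122282811, minus strand) is printed because it comes from the gene that holds most reads of the family, with the start codon in capitals.
Klrg1: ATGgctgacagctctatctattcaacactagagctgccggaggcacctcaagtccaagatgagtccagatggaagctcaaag

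**Figure D1:**
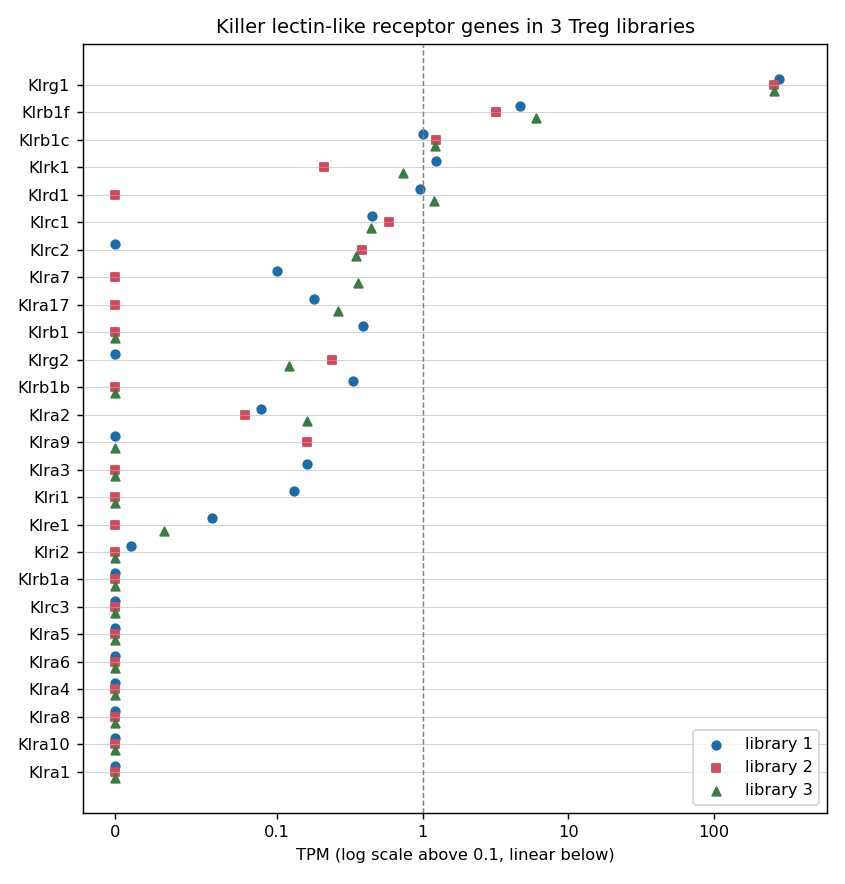
TPM of the 26 Klr genes (rows, ordered by mean) in libraries 1, 2 and 3 (points), on an axis that is logarithmic above 0.1 TPM and linear below it; the dashed line marks 1 TPM. Klrg1 sits between 257.9 and 279.5 TPM, Klrb1f and Klrb1c lie at or above 1 TPM in every library, and 8 genes are at 0 throughout.

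Of the 26 members, 3 were detected, against 47.3% of all protein-coding genes. Beside Klrg1 these were Klrb1f and Klrb1c. Of the 23 members that were not detected, 15 had a count in some library and 8 had none. No undetected member exceeded 1.23 TPM in any library, and together they had 97.3, 69 and 117 expected counts in libraries 1, 2 and 3. In bulk RNA, fewer cells carrying a transcript and less of it per cell cannot be told apart.

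Klrb1f, which encodes the receptor NKR-P1F, stood second. It had 4.63, 3.16 and 5.95 TPM, from 119, 107 and 194 expected counts. Library 3 was highest and library 2 lowest, and the mean was 4.58 ± 1.40 TPM (SD, n = 3). Klrb1f (chr6:129045901-129057464, plus strand) shared none of its 2115 words with another gene. The antisense gene Gm44000 overlaps 2559 bases of its span and was listed at 0 in all 3 libraries. Of the summed Klrb1f counts, 6.86% fell on transcripts of the nonsense-mediated decay class, and the protein-coding transcript Klrb1f-201 held 79.4% ± 18.4 of its TPM (SD, n = 3). The short transcript Klrb1f-203 (354 bases) gave 1.09, 0 and 0.87 TPM in libraries 1, 2 and 3, from only 6.49, 0 and 6.17 expected counts.

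Klrb1c encodes NKR-P1C, an activating receptor used as an NK cell marker in several mouse strains. It had 1.00, 1.23 and 1.21 TPM, from 45.7, 39 and 55 expected counts, with a mean of 1.15 ± 0.127 TPM (SD, n = 3). Library 1 lay at the detection limit itself. Only 0.0767% of the detected protein-coding genes had a lower mean, against 11.6% for Klrb1f. Of its 4 transcripts, Klrb1c-201 held 76.0%, 24.4% and 63.6% of the TPM in libraries 1, 2 and 3, so the leading transcript was not the same in library 2, where Klrb1c-203 held 43.9%.

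Of the other NKR-P1 genes, Klrb1a had no count, whereas Klrb1 with 6 and the inhibitory receptor gene Klrb1b with 5.34 expected counts had reads in library 1 only. The 5 Klrb1 genes summed to 6.35, 4.39 and 7.16 TPM in libraries 1, 2 and 3.

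Among neighbours in the order of levels, Klrg1 stood farthest above the next member. A log2 ratio of TPM between neighbours counted as beyond the spread if all 3 libraries agreed in sign and the mean was over 2 SD from 0, since an exact sign-flip test over 3 libraries cannot go below 0.25. Only the 6 members with a count in every library were ordered, which leaves out Klrd1 and Klrc2. Klrg1 exceeded Klrb1f by 5.90 ± 0.46 log2 units (SD, n = 3), or 59.9-fold. Without length correction this difference was 5.82 log2 units in CPM of the larger table and 4.05 in CPM of the smaller gene table, a separate count per gene. Klrb1f exceeded Klrb1c by 1.96 ± 0.52, or 3.88-fold, and both ratios were beyond the spread. Without length correction, Klrb1f over Klrb1c was 1.55 ± 0.23 log2 units in CPM of the larger table and 2.37 ± 0.91 in the smaller (SD, n = 3). Klrb1c over Klrk1 (0.99 ± 1.44) and Klrk1 over Klrc1 (0.23 ± 1.53) were not beyond the spread. Members that are not neighbours in this order were not compared. Klrc1 exceeded Klra2 by 2.22 ± 0.72, again beyond the spread, although Klra2 had only 3, 3 and 6 expected counts.

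The genes of the NKG2 and CD94 receptors were near or below the detection limit. Klrd1, whose product CD94 is the obligate partner of NKG2A, NKG2C and NKG2E, had 0.960, 0 and 1.20 TPM, from 14, 0 and 22 expected counts. Klrk1, which encodes NKG2D, had 1.23, 0.210 and 0.730 TPM, from 39, 14 and 28 expected counts. These were the members just outside the detection rule, and each reached 1 TPM in 1 library. A count of 0 for Klrd1 in library 2 allowed up to 0.233 TPM there, the level that 3 counts would give, which covers counting error only.

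Klrc1, which encodes the inhibitory NKG2A, had 0.450, 0.590 and 0.440 TPM. Klrc2, which encodes the activating NKG2C, had 0, 0.380 and 0.350 TPM, and Klrc3 (NKG2E) had no count. In Klrk1, 35.8% of the summed counts fell on retained intron transcripts, 13 of the 14 counts of library 2 among them on Klrk1-206. In Klrc2 that share was 20.6% and in Klrd1 8.33%. The levels of these genes therefore include reads that were not assigned to coding transcripts.

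Ly49 genes had few or no counts. Of the 11 Klra genes, 6 had no count in any library, namely Klra1, Klra4, Klra5, Klra6, Klra8 and Klra10. The set of Klra genes is known to differ between mouse strains, and the strain is not given, so a gene with no transcript and one that the animal lacks or carries in a diverged form cannot be told apart. Among the 6, Klra8 encodes Ly49H, the activating receptor for a mouse cytomegalovirus protein. The other 5 were Klra2, Klra3, Klra7, Klra9 and Klra17, and none exceeded 0.360 TPM in a library. The 11 genes together had 12, 7 and 21 expected counts in libraries 1, 2 and 3. Over the 8 members at 0 in all libraries, which are these 6 with Klrb1a and Klrc3, 3 counts per library would give mean levels of 0.119 to 0.217 TPM.

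The remaining members were also close to 0. Klre1, whose product pairs with those of Klri1 and Klri2 on NK cells, and these 2 partners had 2, 2 and 1 expected counts over the 3 libraries. Klrg2 had 0, 11 and 6 expected counts, or at most 0.240 TPM. The 4 annotated Klr pseudogenes had at most 1 count in a library.

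All 26 members lie on chromosome 6, 23 of them on the minus strand. Between Klrb1a and Klra2 (chr6:128609227-131247362, 2.64 Mb), within the region known as the NK gene complex, GENCODE M21 places 24 members and 19 other protein-coding genes. Klrg1 lies 6.33 Mb before this interval and Klrg2 a further 83.6 Mb away. Within the interval, 2 of the 24 members were detected, against 5 of the 19 other genes (26.3%).

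The detected neighbours were also mostly lectin-like genes. Cd69, an early activation marker, had 95.9, 95.7 and 97.5 TPM, and Clec2i had 65.8, 58.6 and 65.0 TPM. Clec2d stood at 33.2 ± 2.84, the autophagy gene Gabarapl1 at 13.8 ± 2.82 and BC035044 at 1.30 ± 0.217 TPM (SD, n = 3). The first 4 of these exceeded every member inside the interval in each library.

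**Figure D2:**
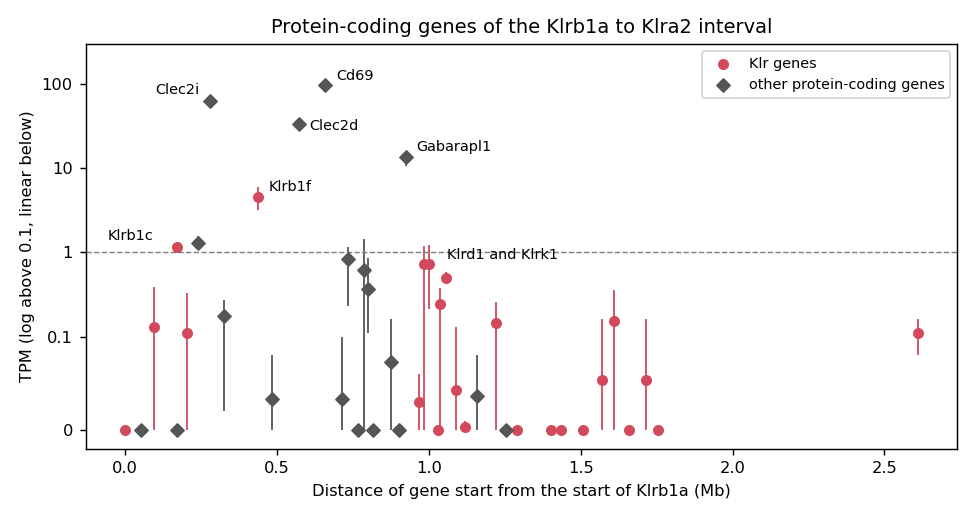
Mean TPM (points) and range over 3 libraries (vertical lines) of the 43 protein-coding genes from Klrb1a to Klra2, by distance of the gene start from the start of Klrb1a; the TPM axis is logarithmic above 0.1 and linear below, and the dashed line marks 1 TPM. Cd69, Clec2i, Clec2d and Gabarapl1 stand above all Klr genes of the interval, and the Klra genes to the right lie at or near 0.

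Several members resemble each other closely, which limits what reads of 50 bases can assign. Of the 26, 8 shared no 50-base word with another gene on either strand, and 10 shared over 10% of their words. The detected Klrb1c shared 17.0% and Klrb1b 27.2%, most of them with Gm44511, an annotated protein-coding gene that overlaps both on the same strand and was listed at 0. Klrc1 shared 38.6%, mainly with Klrc2. The share was highest in Klra10, at 39.8%, and the median over the 11 Klra genes was 4.68%. Klra8, Klra10 and Klrc3, which had no count, shared 33.1%, 39.8% and 36.3%.

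**Figure D3:**
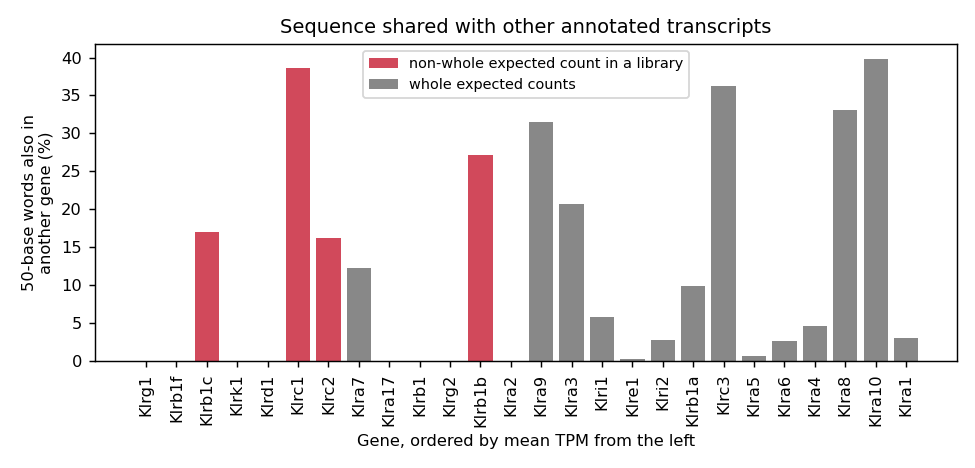
Percent of the distinct 50-base words of each Klr gene's transcripts that also occur in a transcript of another gene on either strand (bars), with genes ordered by mean TPM from the left. The 4 genes with non-whole expected counts (red) share between 16.3% and 38.6% of their words, and Klrg1, Klrb1f, Klrk1 and Klrd1 share none.

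Non-whole expected counts, which mark reads divided among genes, occurred in 4 of the 18 members with a count. Over all protein-coding genes with a count the share was 39.5%. Klrb1c and Klrb1b had them in library 1, where their counts of 45.7 and 5.34 add up to a whole number. Klrc1 and Klrc2 had them in libraries 2 and 3, by less than 0.05 of a read. A whole count does not show that no shared read was assigned. Klrc1 shared 38.6% of its words, yet its count of 17 in library 1 was whole, where Klrc2 had 0. The longest coding run that each pair shares is printed below in capitals with 15 flanking bases in lower case, because a read that falls inside it cannot be told apart. The Klrb1c and Klrb1b stretches lie in exons 4 and 5 of Klrb1c-201 and Klrb1b-201, and share 75 bases.
Klrb1c: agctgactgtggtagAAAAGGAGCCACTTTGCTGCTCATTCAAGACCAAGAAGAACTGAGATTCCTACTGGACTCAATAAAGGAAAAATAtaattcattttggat
Klrb1b: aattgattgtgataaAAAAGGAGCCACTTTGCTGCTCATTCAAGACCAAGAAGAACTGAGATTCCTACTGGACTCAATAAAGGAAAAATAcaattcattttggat
The Klrb1c stretch runs over chr6:128784105-128784162 and chr6:128783733-128783779, and the Klrb1b stretch over chr6:128818913-128818970 and chr6:128818542-128818588, all on the minus strand. The Klrc1 and Klrc2 stretches share 98 bases and lie in exon 4 of Klrc1-201 (chr6:129677188-129677315) and in exons 3 and 4 of a Klrc2 transcript of 2811 bases (chr6:129659305-129659321 and chr6:129658707-129658817), also on the minus strand.
Klrc1: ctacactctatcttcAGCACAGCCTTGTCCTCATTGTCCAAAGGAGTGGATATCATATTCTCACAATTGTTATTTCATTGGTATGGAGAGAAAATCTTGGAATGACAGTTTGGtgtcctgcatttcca
Klrc2: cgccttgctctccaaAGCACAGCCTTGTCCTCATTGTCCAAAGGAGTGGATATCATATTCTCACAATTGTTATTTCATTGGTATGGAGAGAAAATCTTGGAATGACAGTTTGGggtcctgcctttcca

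The signalling partners of these receptors were uneven. Hcst, which encodes the adaptor DAP10 of NKG2D, had 393.2, 430.8 and 394.1 TPM, and Cd247, which encodes the T cell receptor zeta chain, 388.9, 324.9 and 354.2 TPM. Tyrobp, which encodes DAP12, had only 11.4, 3.94 and 5.98 TPM, and Fcer1g 8.55, 7.87 and 4.45 TPM. Hcst thus stood well above its receptor gene Klrk1 in every library, whereas the Tyrobp level varied between libraries and was highest in library 1.

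All 3 phosphatase genes were detected. Ptpn6 (SHP-1) stood at 239.6 ± 19.7, Inpp5d (SHIP-1) at 169 ± 4.67 and Ptpn11 (SHP-2) at 21.5 ± 2.58 TPM (SD, n = 3). Of 14 downstream kinase and adaptor genes, 10 were detected, with a list median of 103 TPM, against 0.808 TPM over all protein-coding genes. The kinase gene Zap70 stood at 176 ± 6.40 TPM, whereas its relative Syk, which was not detected, had 2.42, 3.22 and 0.840 TPM. The NK cell adaptor genes Sh2d1b1 and Sh2d1b2 did not exceed 0.150 TPM in any library, in contrast to Sh2d1a at 213.6 ± 6.06 TPM (SD, n = 3).

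**Figure D4:**
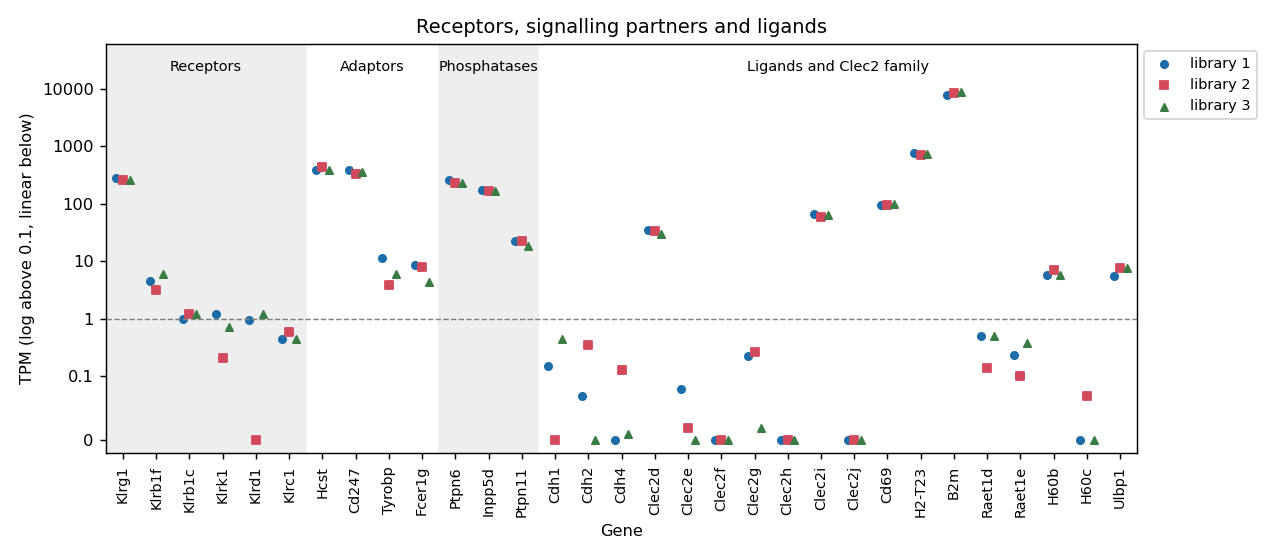
TPM of 6 Klr genes, their adaptors, phosphatases, ligands and other Clec2 family genes in libraries 1, 2 and 3 (points), on an axis that is logarithmic above 0.1 TPM and linear below; the dashed line marks 1 TPM. Klrg1, Hcst, Cd247, Ptpn6 and Inpp5d lie above 100 TPM, while the cadherin genes lie below 1 TPM in every library.

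Genes for the ligands were detected in some families only. None of the 3 cadherin genes whose products bind KLRG1 was detected, with means of 0.197 TPM for Cdh1, 0.140 for Cdh2 and 0.0467 for Cdh4. Of 8 Clec2 family genes 3 were detected, namely Cd69, Clec2i and Clec2d. The product of Clec2i is a ligand of NKR-P1F and that of Clec2d a ligand of NKR-P1B. H2-T23, which encodes the Qa-1 heavy chain, had 755.1, 700.9 and 732.5 TPM. Of the NKG2D ligand genes, 5 of 9 symbols matched the annotation, and H60b (6.23 ± 0.712) and Ulbp1 (6.97 ± 1.18) were detected, whereas Raet1d, Raet1e and H60c were not.

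Markers of other cells that carry Klr receptors were read beside these levels. Of 16 NK cell genes outside the family, among them the adaptor gene Tyrobp, 12 were detected, with a median of 4.82 TPM and summed levels of 783.7, 771.6 and 770.7 TPM in libraries 1, 2 and 3. Most of that sum came from Ccl5 (358.8 ± 4.67) and Nkg7 (334.6 ± 4.16), genes that activated T cells also express. The defining NK receptor gene Ncr1 had 0.18, 0.10 and 0 TPM, Styk1 was at 0 in all 3 libraries and Eomes had 2.19, 1.29 and 2.07 TPM. Also detected, by mean TPM, were Ccl4 (22.7), Il18rap (14.2), Gzmc (11.8), Prf1 (9.08) and Cd160 (7.25). Lower were Gzma (2.53), Fcgr3 (2.37) and Xcl1 (2.18), and Cd244a (0.803) and Serpinb9b (0.0167) were not detected. Of 5 CD8 T cell genes 3 were detected, with summed levels of 25.6 to 27.8 TPM. Cd8b1 made up most of this (21.4 ± 0.893), against 1.64 ± 0.594 TPM for Cd8a (SD, n = 3). Of 12 myeloid genes 6 were detected, with summed levels of 59.5 to 65.7 TPM, and of 6 B cell genes 5, with 43.7 to 56.2 TPM. The part of these cells in the low Klr levels was not tested.

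Genes linked with effector Treg cells and genes of naive T cells were both expressed beside Klrg1. All 20 genes of the effector list were detected, with a median of 99.9 TPM and a range of 2.62 to 625 TPM, and all 10 of the naive list, with a median of 216.5 and a range of 21.8 to 619.5 TPM. Klrg1 exceeded the Th2 and Treg transcription factor gene Gata3 by 1.15 ± 0.08 log2 units and the interleukin 33 receptor gene Il1rl1 by 2.30 ± 0.07 (SD, n = 3). It also exceeded Foxp3, by 0.98 ± 0.04 log2 units, and each of these ratios had the same sign in 3 of 3 libraries. Foxp3 was the lowest Treg marker, and the others, from Il2ra (317 TPM) to Trac (2846 TPM), had higher means than Klrg1. Within the effector list, Icos (625), Cxcr3 (443) and Gzmb (342 TPM) had higher means too.

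The spread between libraries was tested where the summed count was at least 30, which 7 members reached. In a chi-square test of rounded expected counts against the library totals, with Benjamini-Hochberg adjustment over all 15945 genes tested, 5 of the 7 varied, against 65.8% of all genes. The members' share is thus near the background. Klrg1 varied little in size, with a coefficient of variation of 3.49% (adjusted p = 0.00026), and Klrb1f by 24.4% (adjusted p = 0.000527). Klrd1 (89.1%, adjusted p = 0.000317), Klrc2 (89.9%, adjusted p = 0.000106) and Klrk1 (50.6%, adjusted p = 0.00276) varied most. For Klrb1c and Klrc1 the test was not passed, with adjusted p = 0.596 and 0.796.

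Each of the 5 calls was lost without some library. Without library 1, 1 of 6 tested members varied, against 48.6% of all genes, without library 2, 2 of 6, against 41.1%, and without library 3, 2 of 5, against 45%. Without library 1 the adjusted p in the chi-square test became 0.299 for Klrg1, 0.396 for Klrc2 and 0.141 for Klrk1. Without library 2, which had no Klrd1 count, it became 0.538 for Klrd1 and 0.0886 for Klrk1. Without library 3 it became 0.397 for Klrb1f. Klrd1 was below the count minimum without library 1 or library 3, and Klrc2 without library 2 or library 3. Neither Klrd1 nor Klrc2 was thus called with any library left out. Library 2 had counts for 9 members, against 15 in library 1 and 12 in library 3. The count stayed at 5 of 7 with edgeR's TMM scaling (65.6% of all genes) and DESeq2's size factors (65.7%). It was 10 of 18 with no count minimum (41.7% of all genes) and 2 of 3 with a summed count of at least 100 (69.5%). With the chi-square divided by an overdispersion estimated over all genes, 0 of 7 members varied, and 0 also at an unadjusted p below 0.05, against 1.85% of all genes.

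The smaller gene table gave the same leading gene. There Klrg1 had 989, 1008 and 1007 counts in libraries 1, 2 and 3, or 0.699, 0.713 and 0.712 per base of transcript length. In its chi-square test 0 of 3 members varied, and 1 at an unadjusted p below 0.05, against 33.4% of all genes. Klrg1 took 90.3% ± 2.10 of the members' counts (SD, n = 3). Klrb1f had 55, 50 and 80 counts. Klrk1 had 9, 0 and 9 and Klrd1 5, 0 and 16, so both were at 0 in library 2 of that table. Klrb1c had 8, 20 and 10, with library 2 highest, the library in which its expected count was lowest and its TPM highest. Its short transcript Klrb1c-204 (614 bases) had 3.83 expected counts and 0.33 TPM in library 2, and none in libraries 1 and 3.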

How the data were processed

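Expected counts and TPM come from the larger of each library's gene tables and from its transcript table, deposited by the authors and, per the labels' sample notes, built on GENCODE M21 and mm10. Reads matching several genes are divided, so expected counts need not be whole. Whole-number counts come from the smaller gene table, which the authors deposited from a separate run on GENCODE M4. The aligner, the quantification program and the use of strand: not given in the sources used here. Rows outside the annotation (0.125% to 0.182% of counts) stayed out of library sizes.

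All 26 members have a row in the larger table of each library. Expected counts were rounded for the chi-square test (2 degrees of freedom, summed count of at least 30, Benjamini-Hochberg threshold 0.05). The test was tried on simulated Poisson counts, which hold counting noise alone, with changes planted in some genes. Those counts had no overdispersion, so they cannot show how the test behaves on libraries that have it. Counts were called whole within 0.01. Genes were compared by TPM. Each detected member is named with every library's value, and the other members in counts or ranges. Words of 50 bases were read from GENCODE M21 transcripts, matching a difference of 49 bases between length and effective length. P-values measure the spread between technical libraries, and, with no molecular identifiers, limits at 0 counts cover counting error only.

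Members, the 14 gene lists and the tests were chosen with earlier results of these data known. Alternatives left out each library, changed the scaling (edgeR 4.0.16, DESeq2 1.42.0 in R 4.3.3), the filters and the table. Python 3.11.15, pandas 2.3.3 and scipy 1.17.1 were used.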

Additional observations from a re-analysis of the deposited data

How the results depend on the processing

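Of 59 alternative values, 43 stayed the same and 16 moved. For numbers of members, the same meant within a fixed fold of the number given above. Elsewhere it meant an unchanged direction and side of the threshold, or a value within the spread. None reversed, but only ratios between neighbours and levels of single members could reverse. Each of these had the same sign in all 3 libraries, so leaving a library out could not reverse it. For the members' share of counts, transcript shares and single levels, a mean of 2 libraries always lies within 1 SD of the mean of 3. Those alternatives with a library left out could therefore only stay within the spread. The transcript share of Klrg1 was also fixed, since it has a single transcript. All of these are among the 43, which is thus no measure of stability. The number of members that varied between libraries was 1 to 2 with a library left out, 10 with no filter on low counts and 2 with a summed count of at least 100. It was 0 of 7 in the chi-square test with overdispersion allowed for (0 at an unadjusted p below 0.05; 1.85% of all genes called) and 0 of 3 in the smaller table (1 unadjusted; 33.4% of all genes), and 5 under edgeR's TMM and DESeq2's size factors. The number of detected members was 1 at 5 TPM, 5 at 10 expected counts, and 5 where at least 1 count in each library of the smaller table was asked for, a rule that changes both table and threshold. The members took 236 ± 7.72 CPM (SD, n = 3), which became 274.6 as summed TPM and 122.7 in the smaller table. Members with non-whole expected counts numbered 2 to 4 with a library left out and 2 at a tolerance of 0.05. Klrg1 exceeded Klrb1f by 5.68 to 6.14 log2 units with a library left out and by 4.05 in the smaller table, in CPM. The causes were not tested. For the 8 members with no count, the depth allowed mean levels of up to 0.119 to 0.217 TPM, and 12 others were counted in 1 or 2 libraries only. No paired analysis was possible because the labels give a single group.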
